A study of Mus musculus with 2 samples.

Results

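The 10 genes of the oxidative stress and metal response described here, across the cells of healthy and CCl4-injured mouse liver, were the metallothioneins Mt1 and Mt2, the heme oxygenase gene Hmox1, the quinone reductase gene Nqo1, the glutathione synthesis genes Gclc and Gclm, the thioredoxin system genes Txnrd1 and Srxn1, the mitochondrial superoxide dismutase gene Sod2, and Nfe2l2, which encodes the transcription factor NRF2. They were chosen by symbol and matched by Ensembl identifier, and all 10 stood on both deposited gene lists, which share 30406 genes. The study prepared 1 droplet library (10x Genomics) from the liver of healthy mice and 1 from CCl4-injured mice, both of the genotype Col1a2CreER:Rosa26tdTomato, in which a tamoxifen-inducible Cre driven by Col1a2 marks mesenchymal cells with tdTomato. CCl4 is a solvent that hepatocytes turn into a toxic radical; the study's methods describe injections of 2.5 µL per g of a 10% solution in corn oil, 2 per week for 12 weeks, into male and female mice aged 8 to 10 weeks at the start. Both livers were digested with Pronase and Collagenase, passed over a Nycodenz density gradient and depleted of CD45+ cells with magnetic beads. How many mice each library pooled, the age of the healthy mice and whether these mice received tamoxifen are not given in the sources used here.

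Under oxidative or electrophilic stress, NRF2 escapes the ubiquitin ligase adaptor KEAP1, pairs with a small MAF protein and binds antioxidant response elements in the promoters of detoxification genes. BACH1 occupies the same elements and keeps Hmox1 low until heme displaces it. Metallothioneins are short, cysteine-rich proteins that bind zinc and copper, and their genes respond to metals through the factor MTF1 and its metal response elements, and also to glucocorticoids and inflammation; the liver is one of their main sources.

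With 1 library in each group there was no replicate check, and no test was made. Levels are UMIs, that is, molecules counted once each, per 1000000 UMIs of a cell population (CPM), with exact Poisson 95% intervals (a count of 0 is given with the level that 3 UMIs would make), and ratios of CPM carry exact binomial 95% intervals. All of these cover counting error only. A gene was called higher or lower in the CCl4 library when its ratio was at least 2-fold and the interval left out 1, among genes with a mean of at least 10 CPM over both libraries and at least 20 UMIs. The healthy file was written by Cell Ranger 3.1.0 and the CCl4 file by Cell Ranger 6.0.1, so software, library and injury cannot be told apart.

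After filtering, 5602 healthy cells (46056151 UMIs, median 6783.5 per cell) and 7314 CCl4 cells (87470008 UMIs, median 11876) were grouped into 42 clusters, named only where marker genes allowed; 10 cell barcodes occurred in both libraries. The cells captured differed sharply between the libraries. Endothelial-like cells numbered 3557 in the healthy and 640 in the CCl4 library, cholangiocyte-like cells 1447 and 33, hepatocyte-like cells 327 and 0, mesothelial-like cells 234 and 1645, and mesenchymal-like cells 22 and 3982. Immune cells came almost all from the CCl4 library, with 116 T and NK cell-like, 165 macrophage and monocyte-like, 71 B and plasma cell-like, 68 neutrophil-like and 61 dendritic-like cells against at most 11 healthy cells of any of these. A further 332 CCl4 cells carried hepatocyte markers but had a median of only 898.5 UMIs and no hepatocyte marker among the 10 leading genes of their clusters, and stay unnamed; they are called low-UMI hepatic cells here. UMIs of the albumin gene Alb, a hepatocyte product, were found in 94.4% of healthy and 17.2% of CCl4 endothelial-like cells, so the libraries carried unlike amounts of free hepatocyte RNA.

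The promoters of Mt1 and Mt2 are shown first because these neighbouring genes respond to metals together and yet differed in how they were distributed over cells. Sequences are from RefSeq (GRCm38.p6), which listed a promoter for 8 of the 10 genes, and each runs from 250 bases before to 50 bases after the transcription start, 5′ to 3′ on the strand of the gene. Hmox1 and Gclc had no entry. Capitals mark the metal response element core (TGCACNC or TGCGCNC, either strand) and the antioxidant response element core (TGACNNNGC, either strand).
Mt2, chr8:94172368-94172667, plus strand: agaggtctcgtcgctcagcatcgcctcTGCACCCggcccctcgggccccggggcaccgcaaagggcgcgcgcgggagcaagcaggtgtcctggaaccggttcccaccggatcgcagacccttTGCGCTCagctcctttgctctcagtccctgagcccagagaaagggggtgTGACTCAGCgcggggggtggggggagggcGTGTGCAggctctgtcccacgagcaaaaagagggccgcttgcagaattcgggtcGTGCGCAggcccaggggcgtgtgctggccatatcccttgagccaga
Mt1, chr8:94178839-94179138, plus strand: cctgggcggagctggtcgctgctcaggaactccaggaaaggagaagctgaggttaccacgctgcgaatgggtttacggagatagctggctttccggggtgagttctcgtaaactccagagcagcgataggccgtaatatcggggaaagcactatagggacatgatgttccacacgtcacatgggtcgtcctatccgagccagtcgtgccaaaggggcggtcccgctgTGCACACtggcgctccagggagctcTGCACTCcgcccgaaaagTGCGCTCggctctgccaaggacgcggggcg
The windows lie 6471 bases apart on chromosome 8. The Mt1 window held 3 metal response cores and no antioxidant core, whereas the Mt2 window held 4 metal response cores and 1 antioxidant core, which begins 79 bases before the start and overlaps the AP-1 letters TGACTCA. Of 32851 promoters of the same length, 1.97% held at least 3 metal response cores, 0.517% at least 4, and 12.4% at least 1 antioxidant core. A match is a description of letters and not a site shown to be bound.

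Apart from Mt2, 4 of the promoters held an antioxidant core, shown here in windows of 30 bases with the core in capitals because NRF2 binds elements of this form. Whether it binds these matches was not tested. Each window is written on the strand of its gene.
Gclm, chr3:122245413-122245442, plus strand: gctcccgggcGCACCGTCAactctcacgag
Txnrd1, 1 of 3 listed starts, chr10:82859104-82859133, plus strand: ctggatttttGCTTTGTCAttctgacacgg
Srxn1, chr2:152105542-152105571, plus strand: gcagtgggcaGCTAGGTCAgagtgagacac
Nfe2l2, chr2:75704884-75704913, minus strand: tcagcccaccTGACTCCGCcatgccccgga
In Gclm the core overlaps a metal response core by its first bases. The listed windows of Nqo1 and Sod2 held neither core in these letters.

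**Figure D1:**
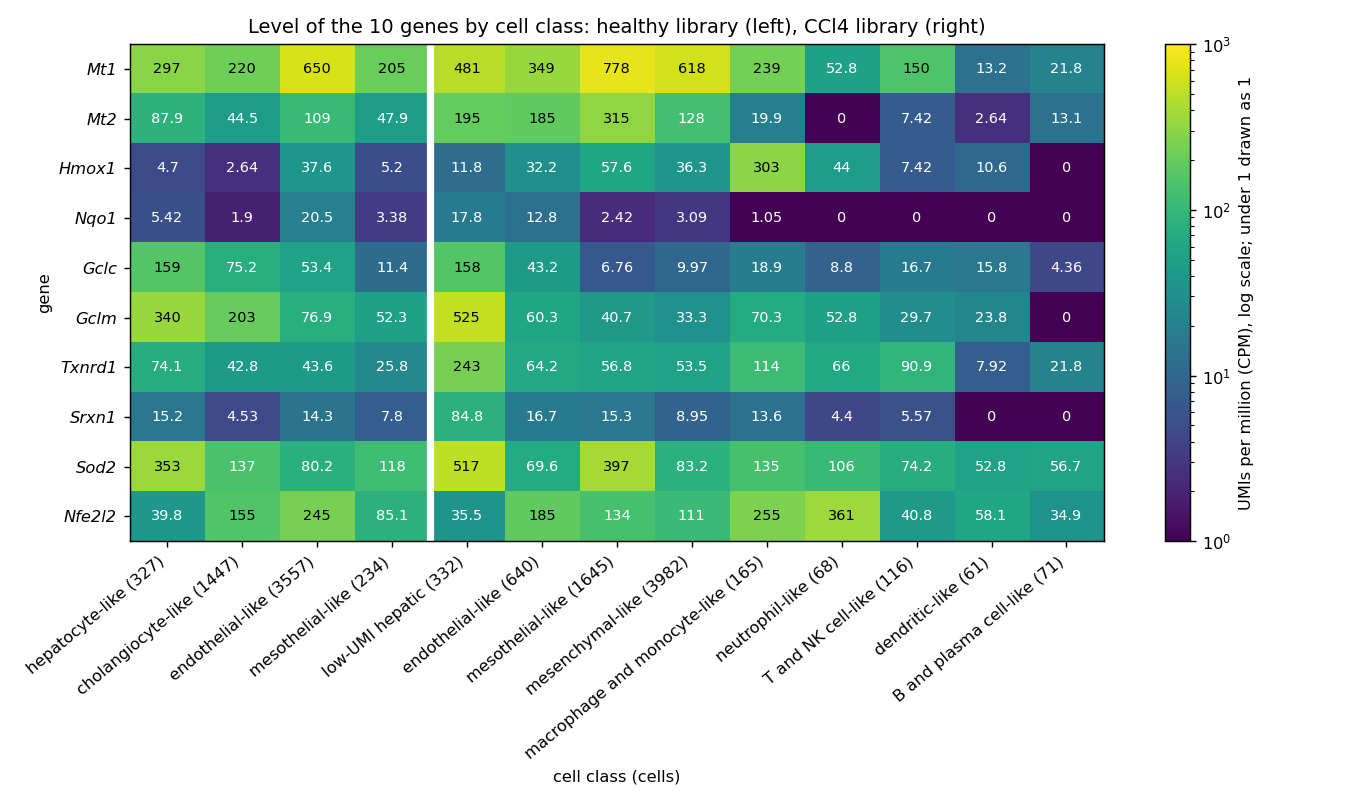
Level of each of the 10 genes (rows) in each cell population (columns), as CPM, with the number of cells in brackets. The colour follows the level on a log scale and the printed number is the CPM. Among the healthy classes with at least 50 cells the metallothioneins, Hmox1, Nqo1 and Nfe2l2 peaked in endothelial-like cells and the other 5 in hepatocyte-like cells, while the CCl4 library had Mt1, Mt2 and Sod2 highest in mesothelial-like cells among named classes of that size.

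Among the healthy classes with at least 50 cells, 5 of the 10 genes were highest in endothelial-like cells (Mt1, Mt2, Hmox1, Nqo1 and Nfe2l2) and 5 in hepatocyte-like cells (Gclc, Gclm, Txnrd1, Srxn1 and Sod2). Among the named classes of the CCl4 library with at least 50 cells, which include no hepatocyte-like class, 3 genes were highest in mesothelial-like cells (Mt1, Mt2 and Sod2), 3 in macrophage and monocyte-like cells (Hmox1, Gclm and Txnrd1), 3 in endothelial-like cells (Nqo1, Gclc and Srxn1) and Nfe2l2 in neutrophil-like cells. The interval of the highest class stood clear of that of the second except for Srxn1 in both libraries and Gclm, Txnrd1 and Nfe2l2 in the CCl4 library.

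Nfe2l2 (ENSMUSG00000015839), the regulator of the group, had 245 CPM (238 to 252) in healthy endothelial-like cells, 155 (149 to 160) in cholangiocyte-like, 85.1 (76.1 to 94.8) in mesothelial-like and 39.8 (32.7 to 47.9) in hepatocyte-like cells. No 2 of these intervals met, and the hepatocyte-like cells, first for its targets Gclc and Gclm, were last for Nfe2l2. In the injured liver Nfe2l2 reached 361 CPM (287 to 448) in neutrophil-like and 255 (224 to 289) in macrophage and monocyte-like cells, then 185 (173 to 199) in endothelial-like, 134 (130 to 138) in mesothelial-like and 111 (108 to 114) in mesenchymal-like cells. The neutrophil-like and macrophage intervals overlapped. Dendritic-like cells had 58.1, T and NK cell-like cells 40.8 and B and plasma cell-like cells 34.9 CPM, with overlapping intervals. NRF2 is regulated largely through protein stability, which these counts do not measure.

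Mt1 (ENSMUSG00000031765) had 650 CPM (639 to 661) in healthy endothelial-like cells, 297 (277 to 318) in hepatocyte-like, 220 (213 to 227) in cholangiocyte-like and 205 (191 to 220) in mesothelial-like cells. The lowest 2 overlapped. The endothelial level was thus 2.19 times that of the hepatocyte-like cells, the class that held the next highest level. Among CCl4 populations Mt1 had 778 CPM (769 to 788) in mesothelial-like, 618 (611 to 625) in mesenchymal-like, 349 (332 to 367) in endothelial-like, 239 (209 to 272) in macrophage and monocyte-like and 150 (119 to 187) in T and NK cell-like cells. Neutrophil-like cells had 52.8, B and plasma cell-like 21.8 and dendritic-like cells 13.2 CPM. If free mesenchymal RNA has the mean profile of the mesenchymal-like cells and is scaled by the collagen gene Col1a1, it would supply 126% of the Mt1 UMIs in dendritic-like and 191% of those in B and plasma cell-like cells, so Mt1 there could not be told from background. Among the T and NK cell-like clusters, cluster 36 (37 cells) was also led by the granulocyte genes Elane, Mpo and Ctsg and held 69 Mt1 UMIs (359 CPM), against 38.0 CPM in cluster 32.

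Mt2 (ENSMUSG00000031762), the partner gene, kept endothelial-like cells first among the healthy classes, with 109 CPM (105 to 114), before 87.9 (77.2 to 99.6) in hepatocyte-like cells. Mesothelial-like cells had 47.9 (41.2 to 55.3) and cholangiocyte-like cells 44.5 (41.5 to 47.6), with overlapping intervals. Among named CCl4 classes with at least 50 cells the order was mesothelial-like at 315 (308 to 321), endothelial-like at 185 (173 to 199) and mesenchymal-like at 128 (125 to 131), all clear of each other. Macrophage and monocyte-like cells had 19.9 (12 to 31.1), and neutrophil-like cells had no Mt2 UMI, which allows a level of up to 13.2 CPM (3 UMIs). B and plasma cell-like, T and NK cell-like and dendritic-like cells had 13.1, 7.42 and 2.64 CPM on 3, 4 and 1 UMIs. Endothelial-like cells therefore stood above mesenchymal-like cells in Mt2 and below them in Mt1.

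Mt2 as a share of all metallothionein UMIs separated the populations. It was 14.4% (13.8 to 14.9) in healthy endothelial-like, 16.8% (15.8 to 17.9) in cholangiocyte-like, 18.9% (16.5 to 21.6) in mesothelial-like and 22.8% (20.3 to 25.5) in hepatocyte-like cells. In CCl4 endothelial-like cells it was 34.7% (32.8 to 36.7) and in CCl4 mesothelial-like cells 28.8% (28.3 to 29.3), both clear of the healthy intervals of the same classes. Mesenchymal-like cells had 17.2% (16.8 to 17.6) and macrophage and monocyte-like cells 7.69% (4.69 to 11.8). Low-UMI hepatic cells of the injured liver had 28.9% (24.1 to 34.0), and among healthy hepatocyte-like cells cluster 29 had 31.9% (21.2 to 44.2), so high shares were not restricted to the endothelial-like and mesothelial-like cells of the injured liver.

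**Figure D2:**
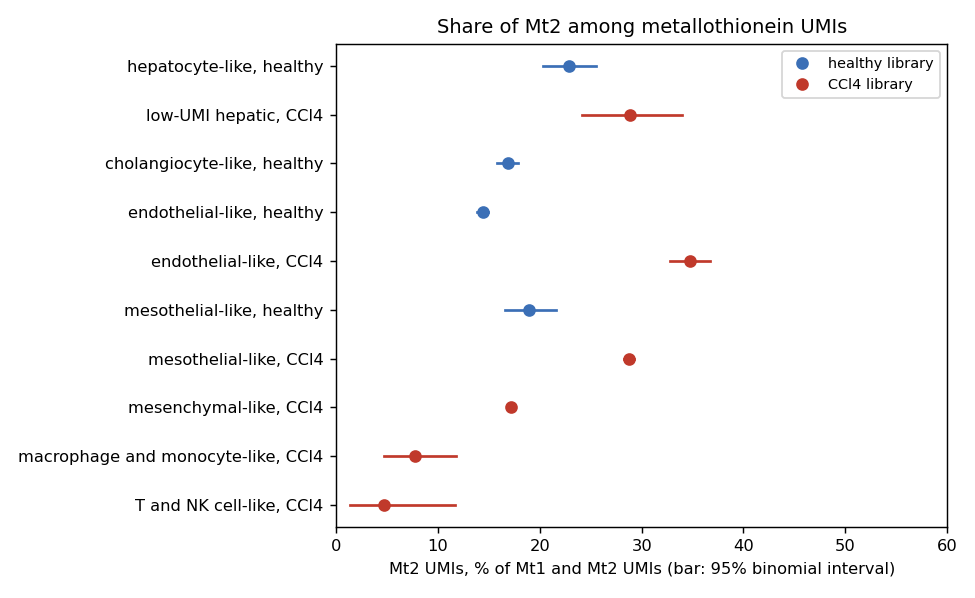
Mt2 UMIs as a percentage of Mt1 plus Mt2 UMIs in each cell population of the healthy and the CCl4 library, with bars for exact binomial 95% intervals. The share was 14.4% in healthy and 34.7% in CCl4 endothelial-like cells.

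Within healthy endothelial-like cells the metallothioneins were not even. Cluster 0 (1920 cells, led by Clec4g and other genes of sinusoidal endothelium) had 812 CPM of Mt1 and 146 of Mt2. Cluster 8 (268 cells, led by Cytl1, Gja5, Vwf and Bmx, which are genes of arterial and large-vessel endothelium) had 40.5 CPM of Mt1 (32.5 to 49.9) and 3.22 of Mt2 (1.29 to 6.63). Both metallothioneins were thus lower in cluster 8 than in any other endothelial cluster of the healthy library, where Mt1 lay between 414 and 812 CPM. Cluster 8 was no shallower, with a median of 8081 UMIs per cell against 6352. Its level of Nqo1 was the opposite, 59.8 CPM (49.95 to 71.0) against 12.4 (10.51 to 14.54) in cluster 0.

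In the larger classes, cells with Mt1 more often had Mt2. After thinning each cell to 2000 UMIs, 22.6% of healthy endothelial-like cells with a Mt1 UMI also had a Mt2 UMI, against 8.53% of those without. The corresponding values were 46.1% and 19.6% in CCl4 mesothelial-like, 36.1% and 15.9% in CCl4 endothelial-like, and 25.9% and 10.8% in mesenchymal-like cells. Across thinned cells of a class the Pearson correlation of the counts was 0.27 in healthy endothelial-like cells (2976 cells) and 0.45 in CCl4 mesothelial-like cells (1570 cells). These cells share a library each, and the values are a description. Mt1 was unevenly spread over cells: the median thinned CCl4 mesothelial-like cell had 1 Mt1 UMI, and the highest had 19.

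Hmox1 (ENSMUSG00000005413), which breaks down heme and is abundant in macrophages that clear red cells, had 37.6 CPM (35.0 to 40.4) in healthy endothelial-like cells and at most 5.20 in the other 3 classes with 50 cells or more, whose intervals overlapped. In the CCl4 cells it reached 303 CPM (269 to 340) in macrophage and monocyte-like cells, 5.26 times the 57.6 (55.0 to 60.3) of mesothelial-like cells. The 11 healthy macrophage and monocyte-like cells gave 198 Hmox1 UMIs, or 1409 CPM (1219 to 1619), too few cells to compare. Neutrophil-like cells had 44.0, mesenchymal-like 36.3, endothelial-like 32.2, dendritic-like 10.6 and T and NK cell-like cells 7.42 CPM, and B and plasma cell-like cells had no UMI. Its 4 macrophage and monocyte-like clusters in the injured liver, of 26 to 59 cells each, lay between 119 and 390.3 CPM, all above the other classes. Among the mesenchymal-like clusters of over 500 cells it had 65.0 CPM in cluster 11, led by Casq2, Dpep1 and Thbs4, and 13.4 to 22.7 in clusters 13, 15 and 16.

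Nqo1 (ENSMUSG00000003849), a flavoprotein that reduces quinones and a classic NRF2 target, was highest in endothelial-like cells in both libraries, among named classes with at least 50 cells. It had 20.5 CPM (18.6 to 22.6) in healthy endothelial-like cells and between 1.90 and 5.42 in the other 3 healthy classes. CCl4 endothelial-like cells had 12.8 (9.66 to 16.6), 4.14 times the 3.09 of mesenchymal-like cells. The unnamed low-UMI hepatic cells of the CCl4 library had 17.8 (8.12 to 33.7) on 9 UMIs, with an interval that overlapped that of the endothelial-like cells. Mesothelial-like cells had 2.42 and macrophage and monocyte-like cells 1.05, and the classes of neutrophil-like, T and NK cell-like, dendritic-like and B and plasma cell-like cells had no Nqo1 UMI. For these leukocytes a count of 0 allows between 5.57 and 13.2 CPM, so a level as low as that of mesenchymal-like cells was not detectable. Within healthy endothelium the 59.8 CPM of cluster 8 was followed by 51.1 (24.5 to 94.1) in the 68 cells of cluster 1, on 10 UMIs. The intervals of clusters 8 and 1 overlapped, and cluster 2 had 26.4 (21.6 to 31.9).

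Gclc (ENSMUSG00000032350) and Gclm (ENSMUSG00000028124) encode the catalytic and the modifier subunit of glutamate-cysteine ligase, the rate-limiting enzyme of glutathione synthesis. Gclc had 159 CPM (145 to 175) in healthy hepatocyte-like, 75.2 (71.3 to 79.2) in cholangiocyte-like, 53.4 (50.2 to 56.7) in endothelial-like and 11.4 (8.32 to 15.4) in mesothelial-like cells. Gclm followed the same order, with 340 (319 to 363), 203 (197 to 209), 76.9 (73.1 to 80.8) and 52.3 (45.31 to 60.04). The neighbours in both orders had intervals that did not meet. Scaled by Alb, free RNA with the mean profile of all hepatocyte-like cells would make up 37.1% of the Gclc and 29.3% of the Gclm UMIs of the cholangiocyte-like cells. With the profile that leaves out the deepest hepatocyte-like cluster, an alternative added after seeing the data, it would make up 110% and 178%, so the level of either gene in cholangiocyte-like cells could not be told from free RNA. CCl4 endothelial-like cells had 43.2 CPM of Gclc (37.2 to 49.8) and every other named CCl4 class with at least 50 cells at most 18.9, the level of macrophage and monocyte-like cells. Next came 16.7 in T and NK cell-like and 15.8 in dendritic-like cells, and lower levels of 9.97 in mesenchymal-like, 8.80 in neutrophil-like, 6.76 in mesothelial-like and 4.36 in B and plasma cell-like cells. For Gclm the named CCl4 classes with at least 50 cells lay closer together, with 70.3 (54.5 to 89.3) in macrophage and monocyte-like, 60.3 (53.2 to 68.0) in endothelial-like, 40.7 in mesothelial-like and 33.3 in mesenchymal-like cells. Neutrophil-like, T and NK cell-like and dendritic-like cells had 52.8, 29.7 and 23.8 CPM of Gclm, and B and plasma cell-like cells no UMI. The unnamed low-UMI hepatic cells of the CCl4 library had 158 CPM of Gclc (125 to 196) and 525 of Gclm (464 to 592). Both levels were above those of every named CCl4 class with at least 50 cells.

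Txnrd1 (ENSMUSG00000020250), cytosolic thioredoxin reductase, had 74.1 CPM (64.3 to 85.0) in healthy hepatocyte-like cells, 43.6 in endothelial-like and 42.8 in cholangiocyte-like cells, which overlapped, and 25.8 (20.9 to 31.4) in mesothelial-like cells. In the injured liver its first 6 named classes with at least 50 cells formed a chain of overlapping neighbours, from 114 (93.9 to 138) in macrophage and monocyte-like to 53.5 (51.5 to 55.6) in mesenchymal-like cells. Between them came T and NK cell-like (90.9), neutrophil-like (66.0), endothelial-like (64.2) and mesothelial-like cells (56.8), and last were B and plasma cell-like (21.8) and dendritic-like cells (7.92). Srxn1 (ENSMUSG00000032802), sulfiredoxin, restores overoxidised peroxiredoxins. It had 15.2 CPM (10.9 to 20.5) in hepatocyte-like and 14.3 (12.68 to 16.03) in endothelial-like healthy cells, which overlapped, then 7.80 in mesothelial-like and 4.53 in cholangiocyte-like cells, and 16.7, 15.3 and 13.6 in CCl4 endothelial-like, mesothelial-like and macrophage and monocyte-like cells. Mesenchymal-like cells had 8.95, neutrophil-like 4.40 and T and NK cell-like cells 5.57, and dendritic-like and B and plasma cell-like cells had no Srxn1 UMI. No named class with at least 50 cells could be put first for Srxn1 in either library.

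Sod2 (ENSMUSG00000006818), which turns superoxide into hydrogen peroxide in mitochondria and is known to respond to inflammatory signals, had 353 CPM (331 to 376) in healthy hepatocyte-like, 137 (132 to 142) in cholangiocyte-like, 118 (107 to 129) in mesothelial-like and 80.2 (76.4 to 84.3) in endothelial-like cells. Free hepatocyte RNA would make up 45.1% of the Sod2 UMIs of the cholangiocyte-like cells with the profile of all hepatocyte-like cells and 289% with the one that leaves out the deepest cluster, so this level too could not be told from free RNA. Among named CCl4 classes the mesothelial-like cells had 397 (390 to 404), 2.93 times the 135 (113 to 161) of macrophage and monocyte-like cells. Every other named CCl4 class with at least 50 cells lay between 52.8 and 106 CPM, in the order neutrophil-like, mesenchymal-like (83.2), T and NK cell-like (74.2), endothelial-like (69.6), B and plasma cell-like (56.7) and dendritic-like cells. The unnamed low-UMI hepatic cells of the CCl4 library had 517 CPM of Sod2 (456 to 583), above the mesothelial-like cells.

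**Figure D3:**
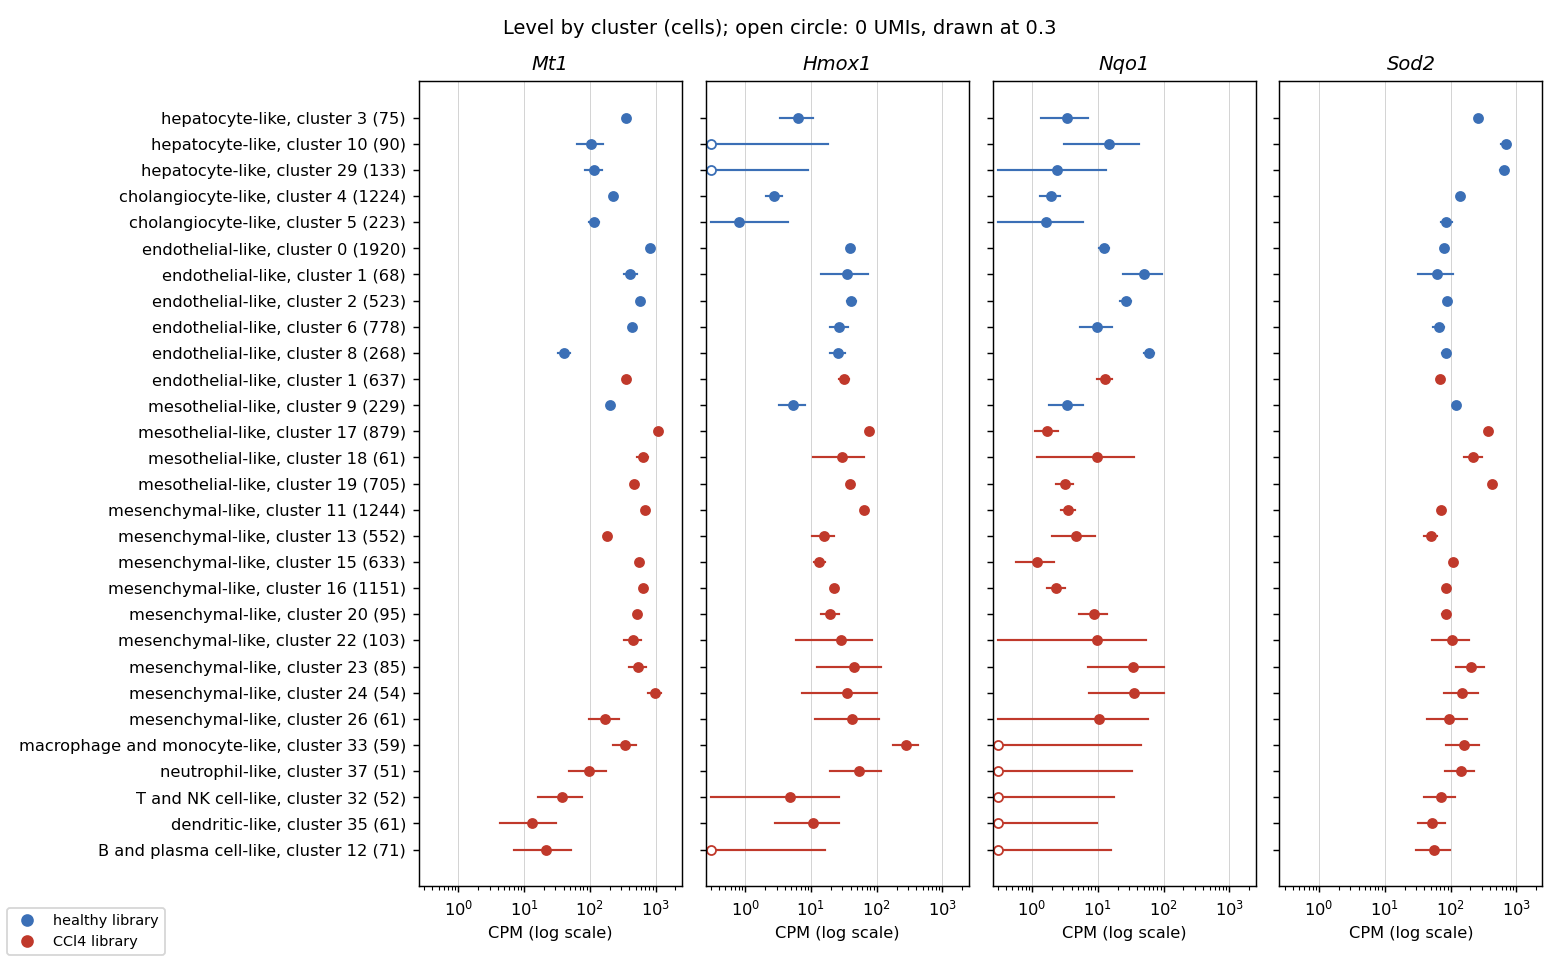
Level of Mt1, Hmox1, Nqo1 and Sod2 (CPM, log axis) in each named cluster with at least 50 cells of a library, with exact Poisson 95% intervals; open circles mark clusters with no UMI. Healthy endothelial cluster 8 had 40.5 CPM of Mt1 and 59.8 of Nqo1, and the 3 CCl4 mesothelial clusters lay above the healthy mesothelial cluster 9 in Mt1, Hmox1 and Sod2.

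The clearest difference between the libraries was in mesothelial-like cells, the lining cells of the liver surface. Of the 10 genes, 8 passed the limits for a call, and 5 of these were higher in the CCl4 library (Hmox1, Mt2, Mt1, Sod2 and Txnrd1) and 0 lower. Over all 8483 genes tested in these cells, 8.37% were called higher and 14.0% lower. The median ratio was 2.78 over the 8 genes and 0.923 over all genes tested. Hmox1 and Srxn1 passed the limit of 10 CPM only through their level in the CCl4 library. Gclc and Nqo1, which did not pass it, had ratios of 0.590 and 0.716, and the median of 2.78 leaves these out. Of the healthy mesothelial-like cells, 229 lay in cluster 9 and 5 in cluster 17, and the CCl4 ones lay in clusters 17, 19 and 18. The cells compared were thus almost all of different clusters.

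Hmox1 went from 5.20 CPM (20 UMIs) in healthy to 57.6 CPM (1808 UMIs) in CCl4 mesothelial-like cells, a ratio of 11.1 (7.15 to 18.2). Mt2 went from 47.9 to 315 CPM, a ratio of 6.57 (5.68 to 7.65), and Mt1 from 205 to 778 CPM, a ratio of 3.80 (3.54 to 4.09). The ratio of Mt2 was thus above that of Mt1. Sod2 was at 118 and 397 CPM, a ratio of 3.36 (3.06 to 3.70), and Txnrd1 at 25.8 and 56.8 CPM, a ratio of 2.20 (1.80 to 2.73). Srxn1 had a ratio of 1.96 (1.36 to 2.94) and Nfe2l2 one of 1.57 (1.41 to 1.77), both short of 2-fold. Gclm had a ratio of 0.778 (0.670 to 0.908). Its ratio was 1.02 in cluster 17 and 1.69 in cluster 18, both with intervals that included 1. In cluster 19 it was 0.508, with an interval that left out 1, so only cluster 19 showed a direction. Gclc (11.4 and 6.76 CPM) had a ratio of 0.590 (0.425 to 0.837), with an interval that left out 1. Nqo1 (3.38 and 2.42 CPM) had a ratio of 0.716 (0.395 to 1.41). Both had a mean level too low to be called.

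The 3 CCl4 mesothelial clusters differed among themselves, and Mt1, Mt2 and Hmox1 were called higher in each. Cluster 17 (879 cells, led by Prkg2, Bnc1, Saa3 and Upk1b) had 1076 CPM of Mt1, 434 of Mt2 and 75.7 of Hmox1. Cluster 19 (705 cells, led by Lgals7, Gjb5 and Calca) had 463 CPM of Mt1, 189 of Mt2 and 38.7 of Hmox1, but more Sod2 (433 against 366 CPM) and Nfe2l2 (169 against 102 CPM). Cluster 18 had 61 cells with a median of 2543 UMIs. Taken alone, cluster 17 had 4 genes called higher, with a background of 7.23% of all genes, cluster 19 had 6 with 10.4%, and cluster 18 had 5 with 13.7%. Txnrd1 was not called in cluster 17 (ratio 1.94), and Sod2 not in cluster 18 (ratio 1.87).

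Other signals also differed between these cells. The level of Col1a1 was 133 CPM in healthy and 875 CPM in CCl4 mesothelial-like cells. If all of the latter were free mesenchymal RNA of the mean profile, it would supply 12.5% of their Hmox1, 15.8% of Mt1, 8.09% of Mt2, 4.16% of Sod2 and 18.7% of Txnrd1 UMIs, and its part in the results was not tested. Summed over 12 genes known to be induced by tissue digestion, such as Fos, Jun, Atf3 and Hspa1a, the level was 5825 CPM in healthy and 9233 CPM in CCl4 cells, with 11 of the 12 higher in the CCl4 cells; the part of digestion in the results was not tested.

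**Figure D4:**
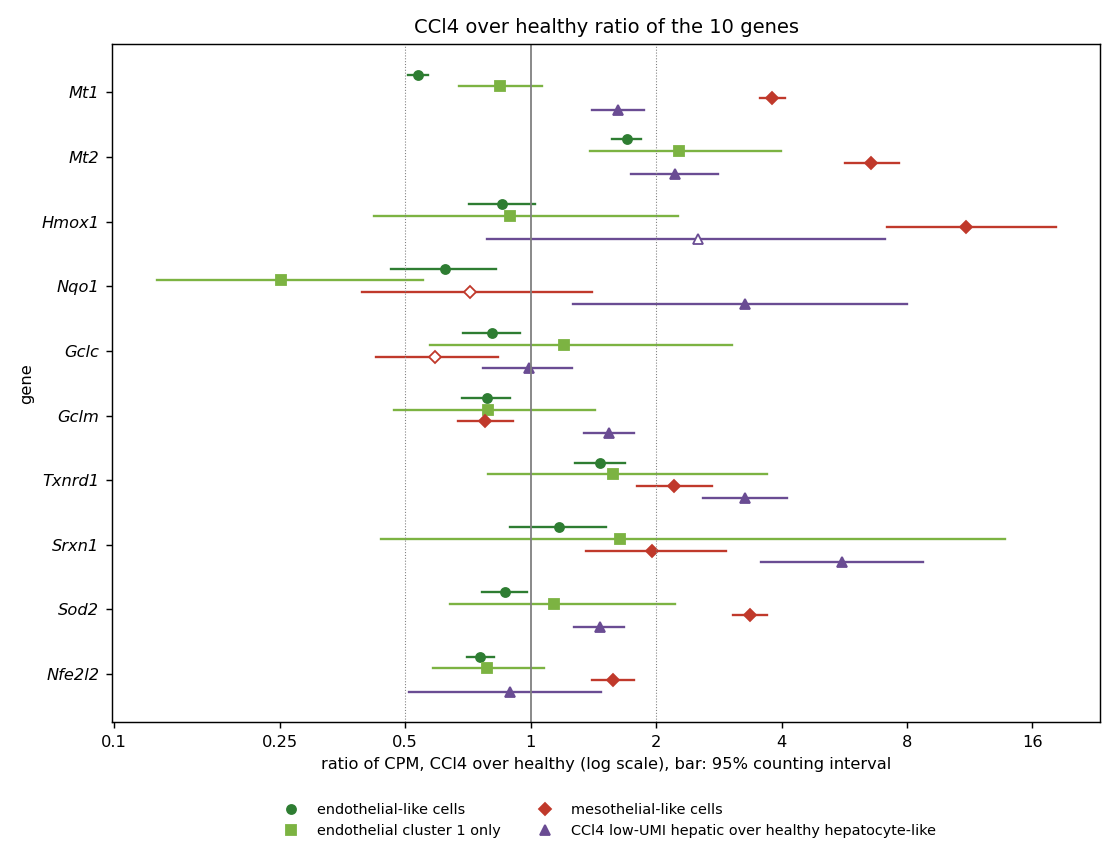
Ratio of CPM in the CCl4 over the healthy library (log axis) for the 10 genes in endothelial-like cells, in endothelial cluster 1 alone, in mesothelial-like cells and in low-UMI hepatic over hepatocyte-like cells, with 95% counting intervals. Open symbols did not pass the limits for a call, and dotted lines mark 2-fold. In mesothelial-like cells Hmox1 stood at 11.1, Mt2 at 6.57 and Mt1 at 3.80, whereas Mt1 stood at 0.537 in endothelial-like cells.

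In endothelial-like cells, by contrast, 0 of the 10 genes were called higher and 0 lower, with a background of 3.94% of 8505 genes higher and 11.1% lower. All genes tested had a median log2 ratio of -0.26 in these cells, and the 10 genes one of -0.27. Mt1 was at 650 and 349 CPM, a ratio of 0.537 (0.509 to 0.566), just short of the 2-fold rule, and Mt2 at 109 and 185 CPM, a ratio of 1.70 (1.57 to 1.84). The 2 metallothioneins thus lay on opposite sides of 1, and neither interval included 1. Txnrd1 had a ratio of 1.47 (1.28 to 1.68) and Srxn1 one of 1.17 (0.890 to 1.51). The remaining ratios were 0.868 for Sod2, 0.855 for Hmox1, 0.809 for Gclc, 0.784 for Gclm, 0.757 for Nfe2l2 and 0.623 for Nqo1, all close to or below the median of all genes. With median-of-ratios scaling, which centres all genes, Sod2 stood at 1.02 and Hmox1 at 1.01, so their direction depended on the scaling, while Mt1 stood at 0.631.

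Which endothelial cells were captured differed between the libraries: healthy ones lay in clusters 0, 2, 6 and 8, whereas 637 of the 640 CCl4 cells lay in cluster 1, led by Ccl21a and Esm1, with only 68 healthy cells. Within cluster 1 alone, Mt1 was at 414 and 349 CPM, a ratio of 0.843 (0.674 to 1.07), closer to 1 than over all endothelial-like cells and with an interval that included 1. Mt2 was at 81.8 and 186 CPM, a ratio of 2.27 (1.39 to 3.99), and was called higher. Nqo1 was at 51.1 and 12.8 CPM, a ratio of 0.251 (0.127 to 0.552), and was called lower on 10 healthy UMIs. The background in cluster 1 was 3.53% of genes higher and 1011 of 8412 genes lower. The 68 healthy cells had a median of 1786 UMIs, and 42.6% of them had an Alb UMI, against 95.1% in the healthy cells of cluster 6 at a median of 1608.5 UMIs. Digestion genes summed to 9200.2 CPM in healthy and 6346 CPM in CCl4 endothelial-like cells, with 4 of the 12 genes higher in the latter, and their part was not tested.

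Hepatocyte-like cells were named in the healthy library only. Their level was therefore set beside that of the 332 low-UMI hepatic cells of the CCl4 library, a comparison chosen after the data were seen and one between cells of unlike quality (Alb at 30679 CPM and 4661 CPM, digestion genes summing to 1402 and 647 CPM, median UMIs of 2891 and 898.5). Of 9 genes with enough UMIs, 4 were higher in the low-UMI hepatic cells (Srxn1, Txnrd1, Nqo1 and Mt2) and 0 lower, where the background was 16.3% of 6297 genes higher and 17.3% lower. Nqo1, at 5.42 and 17.8 CPM, passed the limit of 10 CPM only through its level in the low-UMI hepatic cells. Srxn1 was at 15.2 and 84.8 CPM, a ratio of 5.58 (3.56 to 8.76), on 42 and 43 UMIs. Txnrd1 was at 74.1 and 243 CPM, a ratio of 3.27 (2.60 to 4.11), and Mt2 at 87.9 and 195 CPM, a ratio of 2.22 (1.74 to 2.82). Both genes of the thioredoxin system were thus higher in these cells than in any named class of either library with at least 50 cells. This did not hold for each cluster within a class. The CCl4 mesenchymal-like cluster 23, with 85 cells and a median of 676 UMIs, had 160 CPM of Srxn1 (87.7 to 269). Its Txnrd1 was at 149 CPM (79.3 to 255).

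Nqo1 rested on 15 and 9 UMIs, with a ratio of 3.27 (1.26 to 7.98). Mt1 (1.62), Gclm (1.54) and Sod2 (1.46) were higher by less than 2-fold, and Gclc (0.990) and Nfe2l2 (0.893) had intervals that included 1. The deepest healthy cluster, 75 cells with a median of 25675 UMIs, dominated the healthy side. Without it, Srxn1 had a ratio of 5.63, Mt1 of 3.91, Mt2 of 3.85 and Txnrd1 of 2.77, all called higher with a background of 6.11%, while Nqo1 could no longer be called and Sod2 had a ratio of 0.850. The calls of Srxn1, Txnrd1 and Mt2 therefore held with and without that cluster, and those of Mt1 and Nqo1 did not.

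Of 28 other genes of the pathway, 26 had enough UMIs in mesothelial-like cells, and 5 were higher and 2 lower in the CCl4 library, beside 8.37% of all genes higher and 14.0% lower. Fth1, ferritin heavy chain, which stores iron, was at 4545 and 21756 CPM, a ratio of 4.79 (4.72 to 4.86). Slc39a14, a zinc and iron importer, had a ratio of 5.55 (3.57 to 9.13), Sod3, the secreted superoxide dismutase, one of 4.16 (3.27 to 5.37), Bach1, the repressor of Hmox1, one of 2.82 (2.38 to 3.37), and G6pdx, which supplies NADPH, one of 2.44 (1.66 to 3.74). Both Hmox1 and its repressor were thus higher. Catalase (Cat) had a ratio of 0.475 and malic enzyme (Me1) one of 0.362. The zinc sensor gene Mtf1 had a ratio of 1.10 (0.834 to 1.47), and the zinc exporter Slc30a1 one of 0.594 (0.478 to 0.745). The median log2 ratio of the 26 genes was 0.26, against -0.12 over all genes tested.

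In endothelial-like cells 23 of the 28 could be called, with 0 higher and 5 lower, beside 3.94% and 11.1% of all genes. These were Osgin1 (ratio 0.335), the ferritin light chain Ftl1 (0.364), the biliverdin reductase Blvrb (0.409), the thioredoxin inhibitor Txnip (0.435) and the lipid peroxidase Gpx4 (0.456). Keap1 had a ratio of 0.816 and Bach1 one of 1.17. Within cluster 1 alone, 4 were lower (Slc39a14, Fth1, Ftl1 and Txnip) and 0 higher of 24, beside 1011 of 8412 genes lower and 3.53% higher, and Ftl1 and Txnip stood on both lists. In the low-UMI hepatic cells 5 of 25 were higher (Ftl1, Fth1, Blvrb, Gss and Prdx1) and 5 lower (Slc39a14, Slc30a1, Cat, Osgin1 and Txnip), beside 16.3% and 17.3% of all genes, so neither count stood apart from the background. Without the deepest healthy cluster none of the former were called. Ferritin genes have near-identical copies in the genome, and how each software version shared such reads was not tested.

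The share of cells with a UMI gave a similar picture at equal depth. With each cell thinned to 2000 UMIs, leaving out 5 of 234 healthy and 75 of 1645 CCl4 mesothelial-like cells, Mt1 was found in 24.8% (19.4 to 30.9) of healthy and 56.0% (53.6 to 58.5) of CCl4 cells. Mt2 was found in 8.07% and 35.1%, Sod2 in 18.7% and 47.7%, and Hmox1 in 1.01% and 9.03%. All of these intervals were clear of each other. Without thinning the shares were 67.9% and 87.4% for Mt1, 34.6% and 73.1% for Mt2, 70.9% and 88.6% for Sod2, and 7.69% and 39.9% for Hmox1, at median depths of 18336 and 18381 UMIs. Alb, which mesothelial cells should lack, was found in 39.2% of thinned healthy and 2.47% of thinned CCl4 cells. Its UMIs in healthy mesothelial-like cells would bring with them 1.31% of their Mt2, 1.04% of their Mt1 and 2.14% of their Sod2 UMIs with the profile of all hepatocyte-like cells, and 2.81%, 1.60% and 13.7% with the one that leaves out the deepest cluster.

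Thinned endothelial-like cells, with 581 of 3557 healthy and 66 of 640 CCl4 cells left out, had Mt1 in 58.6% (56.8 to 60.4) and 43.9% (39.8 to 48.1), and Mt2 in 17.2% (15.9 to 18.6) and 25.7% (22.1 to 29.5). The direction of both metallothioneins was the same as in their CPM. Unthinned, Mt1 was found in 71.1% and 71.7% and Mt2 in 32.5% and 49.2%, at median depths of 5892 and 6615 UMIs. Nfe2l2 was found in 37.1% (35.3 to 38.8) and 30.3% (26.5 to 34.2) of thinned cells, and the intervals of the other 7 genes overlapped. Alb was found in 67.2% and 6.58% of these thinned cells. Free hepatocyte RNA would supply 0.950% of the Mt1 and 1.68% of the Mt2 UMIs of healthy endothelial-like cells with the profile of all hepatocyte-like cells, and 1.47% and 3.59% with the other profile. For Gclm and Sod2 the shares were 9.20% and 9.16% with the former and 55.8% and 58.6% with the latter, which would leave 34.0 and 33.2 CPM in healthy cells, below the 60.3 and 69.6 CPM of CCl4 cells, so the direction of these genes depended on the profile.

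Over the 12 populations with at least 50 cells, 3 genes were picked for each of the 10 by the highest Pearson correlation of log2(CPM + 10), among 7380 genes with at least 50 CPM in 1 of them. Nqo1 was closest to the endothelial genes Kank3 (0.98), Plpp3 (0.97) and Ptprb (0.97), and Gclm to Srebf1 (0.98), Cers2 (0.92) and the copper importer Slc31a1 (0.92). Hmox1 was closest to Ifi204 (0.90), Bach1 (0.87) and Slc7a8 (0.86). Mt2 was closest to 2200002D01Rik (0.93), Sec31a (0.91) and Arhgap35 (0.90), and Mt1 to Klf9 (0.90), a gene induced by glucocorticoids, then Ltbr and Lima1 (both 0.87). Gclc was closest to Slc37a4 (0.90), Depp1 (0.89) and Ddah1 (0.88), and Sod2 to Pgm1 (0.91), Tkfc (0.90) and the transferrin gene Trf (0.89). Nfe2l2 was closest to Zfand3 (0.96), Zfand5 (0.95) and Tfe3 (0.93), Srxn1 to Pnp, Mt1 (both 0.88) and Prkar2a (0.85), and Txnrd1, with the weakest likeness, to Cdkn1a (0.73), Cks2 (0.72) and Ppp1ca (0.69). Within the 10 genes, Mt1 and Srxn1 were the closest (0.88), then Mt1 and Mt2 (0.86) and Gclc and Gclm (0.85). Srxn1 had at most 16.7 CPM in these populations and no UMI in some of them, so its values spanned a narrow range near the floor. The points share 2 libraries and their depth, and the values are a description.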

How the data were processed

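The 2 deposited matrices of raw UMI counts, 1 per library, were used (51122846 UMIs in 6297 healthy cells, 97611831 in 8460 CCl4 cells; least per cell 500). The authors made these counts by grouping reads with the same barcode, UMI and gene; their notes name fastp and featureCounts 1.6.2 and both mm10 and GRCh38, their methods GRCh38, although the files hold mouse Ensembl identifiers, and the file headers name Cell Ranger 3.1.0 and 6.0.1. The labels give single cell 3′ v2 chemistry. All matrix columns were used.

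Genes were joined by identifier, keeping 99.9% of healthy and 99.6% of CCl4 UMIs. Cells with over 30% mitochondrial UMIs (418 healthy, 642 CCl4) and others with under 500 UMIs of joined genes or under 200 genes (0 and 17) were removed, and then cells scored as doublets with Scrublet in scanpy 1.11.5 (277 and 487). Both libraries were clustered together without batch correction (2000 variable genes, leaving out the 10 genes and the 28 pathway genes; 10 principal components, 20 neighbours, Leiden resolution 1). Of 21 clusters, 4 that could not be named were clustered again at resolution 0.5, a step added after the data were seen. A cluster was called X-like when at least 3 markers of a class were enriched 2-fold and no other class had more markers among its 10 leading genes, unless its median UMI count was under 0.333 of that of its library and none of its own markers was among those 10; 37 of 42 were named. Exact intervals were computed with scipy 1.17.1 and trimmed mean scaling with edgeR 4.0.16 in R 4.3.3, as an alternative only. The call rule was tested on simulated data.

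The 10 genes, the 28 pathway genes, the 12 digestion genes and the marker lists were chosen with earlier results of these data known. Named were all 10 genes in each class of at least 50 cells, pathway genes that were called, and the 3 most similar genes; mentions of smaller classes, of cluster differences, and of Mtf1, Slc30a1, Keap1 and Bach1 where not called were chosen after their values were seen. Alternatives covered cell filters, clustering, scaling, background and thinning.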

Additional observations from a re-analysis of the deposited data

Results flagged for a closer look

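Of the 10 genes, 3 had CCl4 over healthy ratios on opposite sides of 1 in endothelial-like and mesothelial-like cells, with both counting intervals leaving out 1. Mt1 had a ratio of 0.537 in endothelial-like and 3.80 in mesothelial-like cells, Sod2 ratios of 0.868 and 3.36, and Nfe2l2 ratios of 0.757 and 1.57. The difference between the cell classes was not tested, since each group has 1 library. In endothelial-like cells the median of all genes tested was itself 0.836, above which the ratio of Sod2 lies and below which those of Mt1 and Nfe2l2 lie. With median-of-ratios scaling the ratio of Sod2 there was 1.02. Within endothelial cluster 1 alone the ratio of Sod2 was 1.14 and that of Mt1 was 0.843, each with an interval that included 1. In CCl4 mesothelial cluster 18 the ratio of Nfe2l2 was 0.520, so its direction among mesothelial-like cells depended on the cluster.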

How the results depend on the processing

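No paired analysis was possible because each group has 1 library. No called value reversed under any alternative run. For the counts of calls and of highest classes, 155 results under alternatives stayed within 1.5 times the main value and 23 moved; of the ratios of single genes, 266 stayed within their counting interval and 54 moved. The 5 calls in mesothelial-like cells numbered between 4 and 7 under every alternative run. At Leiden resolution 2 some CCl4 cells were named hepatocyte-like, and only 4 of the 10 genes kept their highest CCl4 class. With each library clustered on its own, Nqo1 and Nfe2l2 were highest in the mesenchymal-like cells of the healthy library, then 109 cells, and not in endothelial-like cells. In endothelial-like cells, 1 gene was higher and 2 lower at 1.5-fold, 1 was lower when every cell weighed the same, and cluster 1 alone, an alternative added after seeing the data, gave 1 higher and 1 lower. Without thinning, 5 genes instead of 3 had a higher share of CCl4 endothelial-like cells. Pathway genes higher in endothelial-like cells numbered 1 with each library clustered on its own and 1 with no filter on CPM. Those lower there numbered 2 without the 50 most abundant genes, 3 with trimmed mean and 3 with median-of-ratios scaling, 10 at 1.5-fold and 0 at 3-fold. In mesothelial-like cells, pathway genes higher numbered 10 at 1.5-fold, 3 at 3-fold and 2 in cluster 17 alone, which was added after seeing the data. Those lower numbered 4 at 1.5-fold, 0 at 3-fold, and 1 each without the 50 most abundant genes, with trimmed mean or median-of-ratios scaling and with hepatocyte background subtracted. Median-of-ratios scaling brought the median log2 ratio of all genes in endothelial-like cells from -0.26 to -0.02 and the ratios of Hmox1 and Sod2 there to 1.01 and 1.02. Depth limits Nqo1 and Srxn1, which had few UMIs in most CCl4 classes.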

Other observations

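The 33 cholangiocyte-like cells of the CCl4 library, too few for the comparisons, had 571 CPM of Mt1 (481 to 673), against 220 CPM in the 1447 healthy ones, and 166 CPM of Mt2 (119 to 225), against 44.5. Their Gclc (101 CPM, 65.5 to 149), Gclm (247 CPM, 189 to 317) and Sod2 (162 CPM, 116 to 221) had intervals that included the healthy values of 75.2, 203 and 137 CPM, and Nfe2l2 (93.1 CPM, 59.0 to 140) was below the healthy 155. These cells had 11182 CPM of Alb, against 5368 in the healthy ones, and its part in the values was not tested. The 22 healthy mesenchymal-like cells had 305 CPM of Mt1 (226 to 403) and 12.4 CPM of Mt2 (1.51 to 45.0), a Mt2 share of 3.92% (0.478 to 13.5) against 17.2% in CCl4 mesenchymal-like cells.

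Among the CCl4 mesenchymal-like clusters of over 500 cells, cluster 13, which had the highest Col1a1 (9282 CPM), had the lowest Mt1 (182 CPM) and Mt2 (52.2 CPM), against 562 to 686 CPM of Mt1 in clusters 11, 15 and 16. Its median was 2615 UMIs per cell, against 13464 to 15043 in those clusters. Healthy hepatocyte-like clusters 10 and 29 had 687 and 645 CPM of Sod2 and the deepest cluster 3 had 262, whereas Mt1 was at 102, 114 and 359 CPM in the same order.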
